A study of Rattus norvegicus with 24 samples.

Results

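The 8 genes described here are antioxidant genes that the transcription factor NRF2 is known to control or that are commonly set beside its targets: Hmox1, Gclc, Gclm, Txnrd1, Srxn1, Gsr, Akr7a3 and Sod1. They were chosen by name and matched to probe sets through the annotation of the array's platform, which gave 12 of the 31042 probe sets tested, and 8 of the 14217 genes with a probe set of their own. Srxn1 had 3 probe sets, Gclc and Txnrd1 had 2 each, and every other gene had 1. All of them entered the tests and are reported, with no filter on low values.

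Expression was measured on 24 Affymetrix rat arrays in primary rat hepatocytes, liver cells taken from the animal and kept in sandwich culture. The cells were left for 24 h after seeding and then exposed for 24 h to a piperazine designer drug at its EC20, the concentration that gives an effect of 20 percent. Benzylpiperazine (BZP) was used at 625 µM, trifluoromethylphenylpiperazine (TFMPP) at 35 µM, methoxyphenylpiperazine (MeOPP) at 522 µM and methylenedioxybenzylpiperazine (MDBP) at 467 µM. The controls received 0.1 percent DMSO, the solvent, and each is named in its title as the control of a given treated sample. With 3 treated samples a drug this made 12 pairs and 8 groups of 3. No strain, sex or age is given in the labels. Nothing in them shows that replicates are separate animals or cultures, and the p-values therefore describe only how far these samples scatter, which could be technical.

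NRF2 is a transcription factor that the adaptor KEAP1 holds at a low level by marking it for degradation. Electrophiles and oxidants change cysteines of KEAP1, NRF2 then escapes degradation, pairs with a small MAF protein and binds the antioxidant response element in front of its target genes, while BACH1 competes for the same element. In hepatocytes the targets include enzymes that make and recycle glutathione, the thioredoxin system, haem oxygenase and enzymes that detoxify reactive aldehydes and quinones.

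The core of that element, searched as TGACNNNGC on both strands, was found in the promoters of 2 members among the windows given for them. RefSeq (assembly GRCr8) gave 7 windows of 300 bases, 250 before to 50 after the start of transcription, for 6 of the members, with 2 alternative starts for Txnrd1. The same letters were present in 4038 of 33469 promoter windows of all genes, or 12.1 percent, so a match describes the sequence only. The windows of Gclm and Txnrd1, which hold a core, and that of Akr7a3, the member with the largest change, are shown 5′ to 3′ in the direction of the gene, with the core in capitals as it reads on the printed strand. The Gclm window lies at chr2:213031885-213032184 on the plus strand, with the core TGACTAAGC on the strand opposite to the gene and its first printed base at -172 from the start. The Txnrd1 window lies at chr7:22755855-22756154 on the minus strand, with the core TGACAAAGC on the strand opposite to the gene and its first printed base at -78. The Akr7a3 window lies at chr5:156876471-156876770 on the plus strand and holds no match to these letters.
Gclm promoter: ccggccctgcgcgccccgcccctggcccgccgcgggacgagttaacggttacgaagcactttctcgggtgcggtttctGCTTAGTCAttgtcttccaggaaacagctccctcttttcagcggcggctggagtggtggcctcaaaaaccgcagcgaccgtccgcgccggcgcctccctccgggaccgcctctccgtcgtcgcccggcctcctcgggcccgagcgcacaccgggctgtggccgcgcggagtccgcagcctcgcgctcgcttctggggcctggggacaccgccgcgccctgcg
Txnrd1 promoter: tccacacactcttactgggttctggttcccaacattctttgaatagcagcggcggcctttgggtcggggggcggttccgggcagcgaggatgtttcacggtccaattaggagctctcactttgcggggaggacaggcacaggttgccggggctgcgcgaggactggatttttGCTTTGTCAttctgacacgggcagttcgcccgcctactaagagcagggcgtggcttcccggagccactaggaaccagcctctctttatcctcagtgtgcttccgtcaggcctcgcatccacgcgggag
Akr7a3 promoter: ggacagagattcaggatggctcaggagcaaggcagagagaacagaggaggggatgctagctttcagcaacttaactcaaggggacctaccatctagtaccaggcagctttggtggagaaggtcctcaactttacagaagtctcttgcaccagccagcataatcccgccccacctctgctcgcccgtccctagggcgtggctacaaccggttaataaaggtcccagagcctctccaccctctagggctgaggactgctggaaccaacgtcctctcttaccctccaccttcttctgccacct

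Across the 4 drugs, Akr7a3 and Sod1 fell in every pair, 2 of 3 Srxn1 probe sets and 1 of 2 Txnrd1 probe sets rose by 1.14- to 1.21-fold, and Hmox1, Gclc, Gclm and Gsr were not called in the mean. A change was called where the Benjamini-Hochberg adjusted p of limma's moderated test over all 31042 probe sets was under 0.05, in a fit with a term for each pair. For the mean of the drugs, 3 of the 12 member probe sets were higher and 2 were lower, against 22.4 percent of all probe sets called in either direction, 12.5 percent higher and 9.85 percent lower. With each gene taken by the probe set of highest mean level, 1 member was higher and 2 were lower, against 29.9 percent of all genes called. The median difference of the 12 probe sets was 0.03 on the log2 scale, against 0.0008 for all probe sets. With so few members the counts lie near this background, and they are given as a description. Values are log2 expression levels, and differences are treated minus the DMSO sample of the same pair. In bulk samples, fewer cells of a type and less RNA per cell cannot be told apart.

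**Figure D1:**
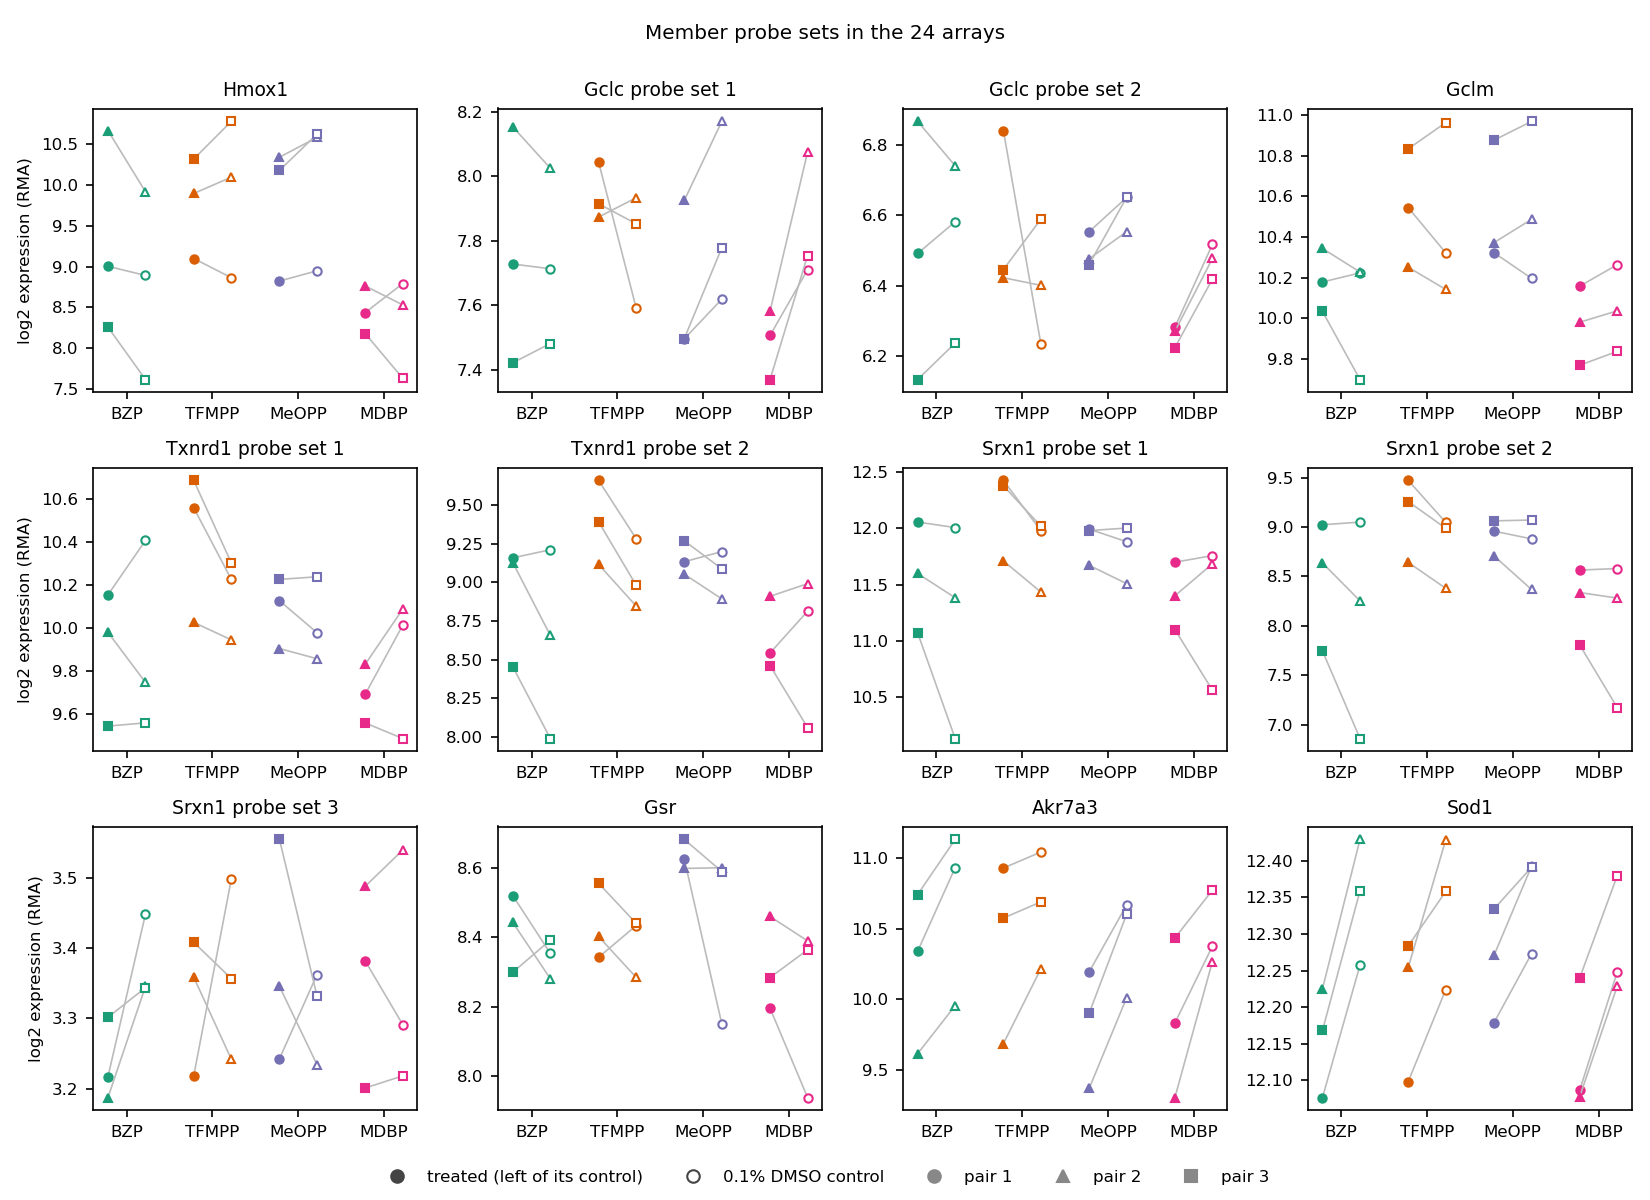
Log2 expression (RMA, vertical axis, scaled per panel) of the 12 member probe sets in all 24 arrays, by drug. Filled points are treated samples, open points to their right the DMSO control of the same pair, grey lines join a pair, and circle, triangle and square stand for pairs 1, 2 and 3; every line of Akr7a3 and of Sod1 runs upward to the control, while the lines of Hmox1 and Gclc run both ways.

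The arrays did not all start from the same state. The 12 DMSO arrays were clustered by their correlations over all probe sets, and the clustering was cut at 5 sets. That number was set for the analysis and not tested. The sets are called preparations here, although the labels name no such batch. Preparation 1 held pair 1 of every drug, and preparation 2 held pair 2 of BZP, TFMPP and MeOPP. Preparation 3 held pair 3 of BZP and of MDBP, preparation 4 held pair 3 of TFMPP and of MeOPP, and preparation 5 held pair 2 of MDBP. Correlations between DMSO arrays were 0.9943 to 0.9971 inside a preparation and 0.9622 to 0.9919 across preparations. The sets were formed on these correlations, so the gap between the ranges follows from the clustering and is no test of the sets. TFMPP and MeOPP therefore lay in the same 3 preparations, while BZP and MDBP each had a mix of their own, so their differences from other drugs are only partly separable from preparation. Hepatocyte markers were high in all arrays (Alb at 14.1), and 3 of 7 fell in the mean of the drugs: Ttr, Hnf4a and Cps1. Of 10 Kupffer cell and leukocyte markers 5 fell and 1 rose, of 9 stellate cell markers 2 fell, and no endothelial (of 6) or cholangiocyte (of 5) marker was called. Without the pair terms the 3 hepatocyte calls held and all Kupffer cell, leukocyte and stellate cell calls were lost (adjusted p 0.161 to 0.672). With 1 value per preparation only that of Hnf4a was lost among these calls (0.0604).

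Akr7a3 encodes an aldo-keto reductase that in rat liver reduces reactive dialdehydes such as that of aflatoxin. Its level was 10.34, 9.62 and 10.74 in BZP-treated cells, against 10.93, 9.96 and 11.13 in their DMSO controls. With TFMPP it was 10.93, 9.69 and 10.58, against 11.04, 10.22 and 10.69 in DMSO. With MeOPP it was 10.19, 9.37 and 9.90, against 10.67, 10.01 and 10.60 in DMSO. Each treated sample was below its own control, while the groups overlapped with every drug because the pairs lay at different levels. With MDBP it was 9.83, 9.31 and 10.44, against 10.38, 10.27 and 10.77 in DMSO. The mean difference was -0.48 ± 0.06 (SE, n = 12 pairs; 1.39-fold lower, limma adjusted p = 2.03e-05), and the pairs ranged from -0.96 to -0.11. By preparation the difference ran from -0.96 in preparation 5 to -0.36 in preparation 3. Without the pair terms the call was lost, at an adjusted p of 0.166, and with 1 value per preparation it was 0.00359.

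By drug, Akr7a3 changed by -0.44 ± 0.12 with BZP (adjusted p = 0.0284), by -0.61 ± 0.12 with MeOPP (adjusted p = 0.00552) and by -0.61 ± 0.12 with MDBP (adjusted p = 0.00469). With TFMPP the difference was -0.25 ± 0.12 and was not called (adjusted p = 0.431; SE, n = 3 pairs each). The drugs were not shown to differ in this: the F test of equal effects gave an adjusted p of 0.891, and TFMPP minus MDBP was 0.36 (95 percent interval 0.0036 to 0.72, adjusted p = 0.772). All of these single-drug calls were lost without the pair terms (limma adjusted p 0.805 to 0.856) and with the DMSO arrays as 1 control group (0.194 to 0.786). The BZP call was lost when pair 1, 2 or 3 of BZP was left out (adjusted p 0.0617 to 0.156). It was also lost without preparation 1, 2 or 3 (0.0724 to 0.219) and with only the BZP arrays (0.0824). The MeOPP call was lost without pair 2 of MeOPP (0.0532) or pair 3 (0.0519) and without preparation 1, 2 or 4 (0.0524 to 0.0704). The MDBP call was lost without pair 2 of MDBP, the only pair of preparation 5 (0.089).

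Sod1, the cytosolic copper-zinc superoxide dismutase, was 12.08, 12.23 and 12.17 in BZP-treated cells, against 12.26, 12.43 and 12.36 in DMSO. With TFMPP it was 12.10, 12.25 and 12.28, against 12.22, 12.43 and 12.36 in DMSO. With MeOPP it was 12.18, 12.27 and 12.33, against 12.27, 12.39 and 12.39 in DMSO. The BZP-treated samples lay below all 3 of their controls, and with the other drugs the groups overlapped. With MDBP it was 12.09, 12.08 and 12.24, against 12.25, 12.23 and 12.38 in DMSO. The difference was small and close to the same in all pairs, from -0.20 to -0.06, with a mean of -0.14 ± 0.04 (SE, n = 12 pairs; 1.10-fold lower, limma adjusted p = 0.017). It was not called with any single drug, where adjusted p ran from 0.156 with BZP to 0.637 with TFMPP. The call was lost without the pair terms (0.0593), with 1 value per preparation (0.107), without preparation 1 (0.134) and without preparation 2 (0.0994), and it held with the DMSO arrays as 1 control group (0.0379). Akr7a3 and Sod1 were the 2 of 12 member probe sets that moved in the same direction in all 12 pairs, as did 8.49 percent of all probe sets.

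Srxn1 encodes sulfiredoxin, which restores over-oxidised peroxiredoxins. Its probe set 2 read 9.02, 8.64 and 7.75 in BZP-treated cells, against 9.05, 8.25 and 6.86 in DMSO. With TFMPP it read 9.47, 8.64 and 9.26, against 9.05, 8.38 and 8.99 in DMSO. With MeOPP it read 8.96, 8.71 and 9.06, against 8.88, 8.37 and 9.07 in DMSO. The groups overlapped with every drug, and the lowest control, in pair 3 of BZP, stood beside the largest difference. With MDBP it read 8.56, 8.34 and 7.81, against 8.58, 8.28 and 7.17 in DMSO. The mean difference was 0.27 ± 0.07 (SE, n = 12 pairs; 1.21-fold higher, limma adjusted p = 0.0132), and 9 of 12 pairs were higher. Probe set 1 gave 0.23 ± 0.08 (adjusted p = 0.0447), again with 9 of 12 pairs higher.

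The rise of Srxn1 was uneven, and the mean of its 3 probe sets did not pass (0.16, limma adjusted p = 0.0501). In preparation 3, pair differences averaged 0.74 for probe set 1 and 0.76 for probe set 2, while in the other preparations they lay between -0.28 and 0.22 and between 0.06 and 0.33. Probe set 2 kept its call without any 1 pair (adjusted p 0.00271 to 0.0384) and lost it without preparation 2 (0.0812), without preparation 3 (0.0621), with 1 value per preparation (0.0961) and without the pair terms (0.605). Probe set 1 lost its call without the pair terms (0.616), with 1 value per preparation (0.339), without preparation 1, 2, 3 or 4 (0.0902 to 0.201), and in 9 of the 12 fits that left out a pair. Those 9 pairs were pair 3 of BZP, pairs 1 and 3 of MDBP, and all 3 pairs of MeOPP and of TFMPP (0.0505 to 0.119). Probe set 3 of Srxn1 read 3.19 to 3.55 in treated cells and 3.22 to 3.54 in DMSO, with a difference of -0.03 ± 0.05 (adjusted p = 0.789). Its mean level of 3.34 was below every array median (4.45 to 4.52) and above only 29 percent of all probe sets. The mean of the 3 probe sets includes this low one. Its pair differences did not follow those of the other probe sets (r = -0.17 with probe set 1 and -0.15 with probe set 2 over 12 pairs, against 0.92 between probe sets 1 and 2).

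Txnrd1 encodes the cytosolic thioredoxin reductase, which keeps thioredoxin reduced, and its 2 probe sets gave different calls. Probe set 2 ranged from 8.46 to 9.66 in treated cells (median 9.12) and from 7.99 to 9.28 in DMSO (median 8.94). It was higher in 8 of 12 pairs, by 0.19 ± 0.06 (SE; 1.14-fold, limma adjusted p = 0.0424). Probe set 1 ranged from 9.54 to 10.68 in treated cells (median 10.00) and from 9.48 to 10.41 in DMSO (median 9.99), with a difference of 0.04 ± 0.05 (adjusted p = 0.715, 7 of 12 pairs higher). The pair differences of the 2 probe sets correlated at 0.75 over 12 pairs. With TFMPP, the drug with the highest differences for both, probe set 2 read 9.66, 9.12 and 9.39, against 9.28, 8.85 and 8.98 in DMSO, a difference of 0.35 ± 0.13 (adjusted p = 0.235). The call of probe set 2 was lost without the pair terms (0.531), with 1 value per preparation (0.17), with repeated quantile normalization (0.0561), as the mean of both probe sets (difference 0.11, adjusted p = 0.141) and without preparation 2, 3, 4 or 5 (0.0544 to 0.203). It was also lost without pair 2 or 3 of BZP, MDBP or MeOPP and without any of the 3 pairs of TFMPP (0.0544 to 0.113).

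Hmox1 encodes the inducible haem oxygenase, which breaks down haem to biliverdin, iron and carbon monoxide. It read 9.00, 10.67 and 8.26 in BZP-treated cells, against 8.89, 9.92 and 7.62 in DMSO. With TFMPP it read 9.10, 9.90 and 10.32, against 8.86, 10.10 and 10.78 in DMSO. With MeOPP it read 8.82, 10.34 and 10.18, against 8.95, 10.58 and 10.62 in DMSO. The groups overlapped with every drug, and the spread between pairs was far wider than that within them. With MDBP it read 8.44, 8.76 and 8.18, against 8.79, 8.53 and 7.63 in DMSO. The mean difference was 0.06 ± 0.08 (SE, n = 12 pairs; adjusted p = 0.697), with 6 pairs higher and 6 lower.

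Among the drugs, Hmox1 was higher in all 3 BZP pairs (0.50 ± 0.16, adjusted p = 0.0657) and lower in all 3 MeOPP pairs (-0.27 ± 0.16, adjusted p = 0.425), but neither passed the threshold. With TFMPP it differed by -0.14 ± 0.16 and with MDBP by 0.14 ± 0.16 (SE, n = 3 pairs each). BZP minus MeOPP was 0.77 (95 percent interval 0.28 to 1.26), past 0.05 before adjustment only (limma adjusted p = 0.577). The means of TFMPP and MeOPP came from the same preparations, and those of BZP and MDBP from other sets. Pair 3 lay in preparation 3 for BZP and MDBP, where Hmox1 differed by 0.59 on average, and in preparation 4 for TFMPP and MeOPP, where it differed by -0.45. Within preparation 2, which held pair 2 of both drugs, Hmox1 differed by 0.75 with BZP and by -0.24 with MeOPP, and within preparation 1 by 0.11 and -0.12.

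Between controls, Hmox1 varied more than any other member: its highest DMSO sample was 3.16 above its lowest on the log2 scale (8.96-fold). The DMSO mean was 8.87 in preparation 1, 10.20 in preparation 2, 7.62 in preparation 3, 10.70 in preparation 4 and 8.53 in preparation 5. Treatment moved Hmox1 by at most 0.75 in any pair. The DMSO range was 1.89 (3.70-fold) for Srxn1 probe set 1, 1.27 (2.41-fold) for Gclm, 1.18 (2.26-fold) for Akr7a3 and 0.20 (1.15-fold) for Sod1. Preparation 3 had the lowest DMSO mean of Hmox1, Gclm, both Gclc and both Txnrd1 probe sets and Srxn1 probe sets 1 and 2, and the highest of Akr7a3. In its controls Slc7a11, the cystine transporter of the glutathione route, read 3.58, against 6.55 to 7.29 in the other preparations. Summed Kupffer cell and leukocyte markers were highest in the same controls (11.8 on the log2 scale, against 10.8 to 11.6 elsewhere), and over all pairs the sum was 10.5 to 11.5 in treated cells and 10.7 to 11.9 in DMSO, lower in 11 of 12 pairs. The stellate cell and hepatocyte sums were also lower in 11 of 12 pairs each (median differences -0.21 and -0.13). Summed endothelial markers were lowest in the preparation 3 controls, at 6.74 against 8.03 to 9.49 elsewhere, and were lower in 7 of 12 pairs. Of the 10 Kupffer cell and leukocyte markers 6 had a mean of at least 5, Ptprc was lowest at 3.36, and log2 values have no zero. The sums add unlogged values, so Cd14 (mean 10.0) and Lyz2 (9.35) weigh most in this one, with C1qb next at 6.73. Cd14 was lower in 11 of 12 pairs and Lyz2 in 8. Cd68 was higher in 12 of 12 (0.45 ± 0.08, limma adjusted p = 0.000607, and 0.262 without the pair terms), so the sum does not stand for every marker. The part of these cells in the levels of Hmox1, Srxn1 or Akr7a3 was not tested.

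**Figure D2:**
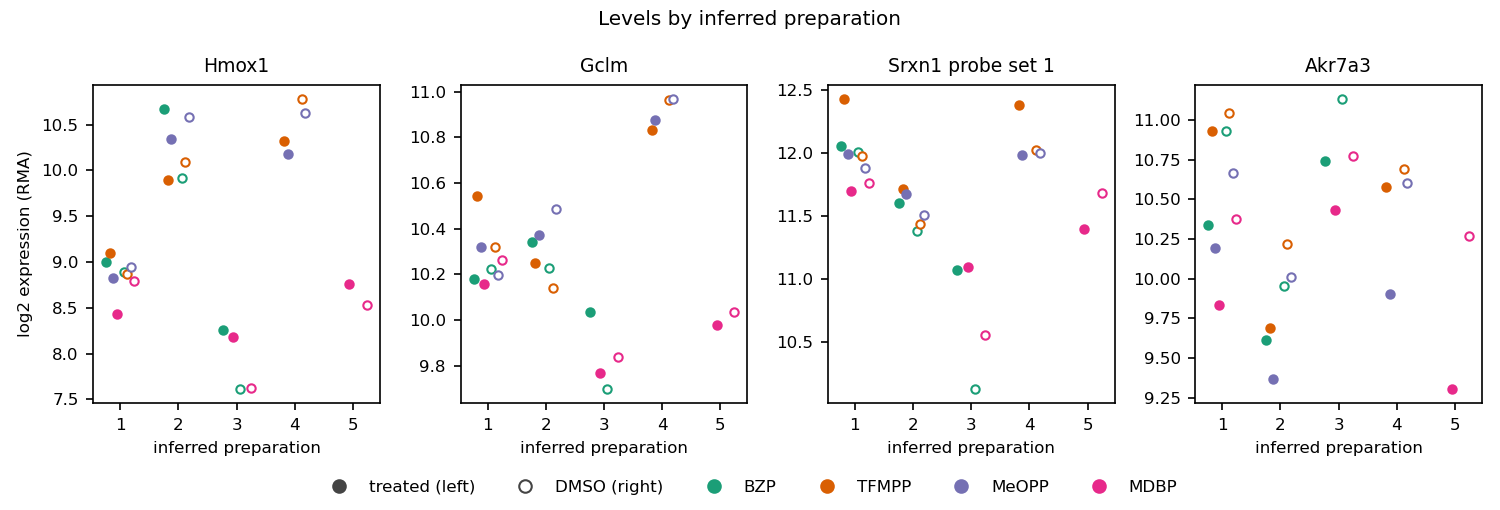
Log2 expression (RMA, vertical axis, scaled per panel) of Hmox1, Gclm, Srxn1 probe set 1 and Akr7a3 by the 5 preparations inferred from the DMSO arrays (horizontal axis). Filled points are treated samples and open points to their right DMSO controls, coloured by drug; DMSO controls of Hmox1 stand at 7.62 on average in preparation 3 and 10.70 in preparation 4, farther apart than any treated sample from its control.

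Gclc and Gclm encode the catalytic and the modifier subunit of glutamate-cysteine ligase, the first step of glutathione synthesis. Gclc probe set 1 read 7.51, 7.58 and 7.37 in MDBP-treated cells, against 7.71, 8.08 and 7.75 in DMSO, and all treated samples lay below all controls. The difference was -0.36 ± 0.10 (SE, n = 3 pairs; 1.28-fold lower, limma adjusted p = 0.0467). Probe set 2 read 6.28, 6.27 and 6.22 with MDBP, against 6.52, 6.48 and 6.42 in DMSO, again without overlap, and its difference of -0.21 ± 0.12 was not called (adjusted p = 0.343). The MDBP call of probe set 1 was lost without the pair terms (0.726), with only the MDBP arrays (0.098), with arrays centred on their medians (0.0627), with Gclc probe sets averaged (0.0901) and without any 1 preparation (0.0562 to 0.272). It was also lost without any pair of MDBP or of MeOPP, and when TFMPP pair 3 or BZP pair 1 was dropped (0.0561 to 0.272).

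With MeOPP, Gclc was lower in all 3 pairs by both probe sets (-0.22 ± 0.10 and -0.12 ± 0.12, adjusted p = 0.283 and 0.664), and probe set 2 did not overlap its controls. With BZP and TFMPP the differences were 0.03 and 0.15 for probe set 1. The F test of equal drug effects on probe set 1 passed 0.05 before adjustment only (limma adjusted p = 0.735). For the mean of the drugs Gclc differed by -0.10 ± 0.05 in probe set 1 (adjusted p = 0.204) and by -0.05 ± 0.06 in probe set 2 (adjusted p = 0.636). Their pair differences correlated at 0.84 over 12 pairs. Gclm ranged from 9.77 to 10.88 in treated cells (median 10.29) and from 9.70 to 10.97 in DMSO (median 10.23), with a difference of 0.02 ± 0.05 (adjusted p = 0.794, 5 of 12 pairs higher). Gsr, the glutathione reductase, ranged from 8.20 to 8.68 in treated cells (median 8.45) and from 7.94 to 8.60 in DMSO (median 8.38), and its difference of 0.10 ± 0.05 was not called (adjusted p = 0.225, 8 of 12 pairs higher).

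**Figure D3:**
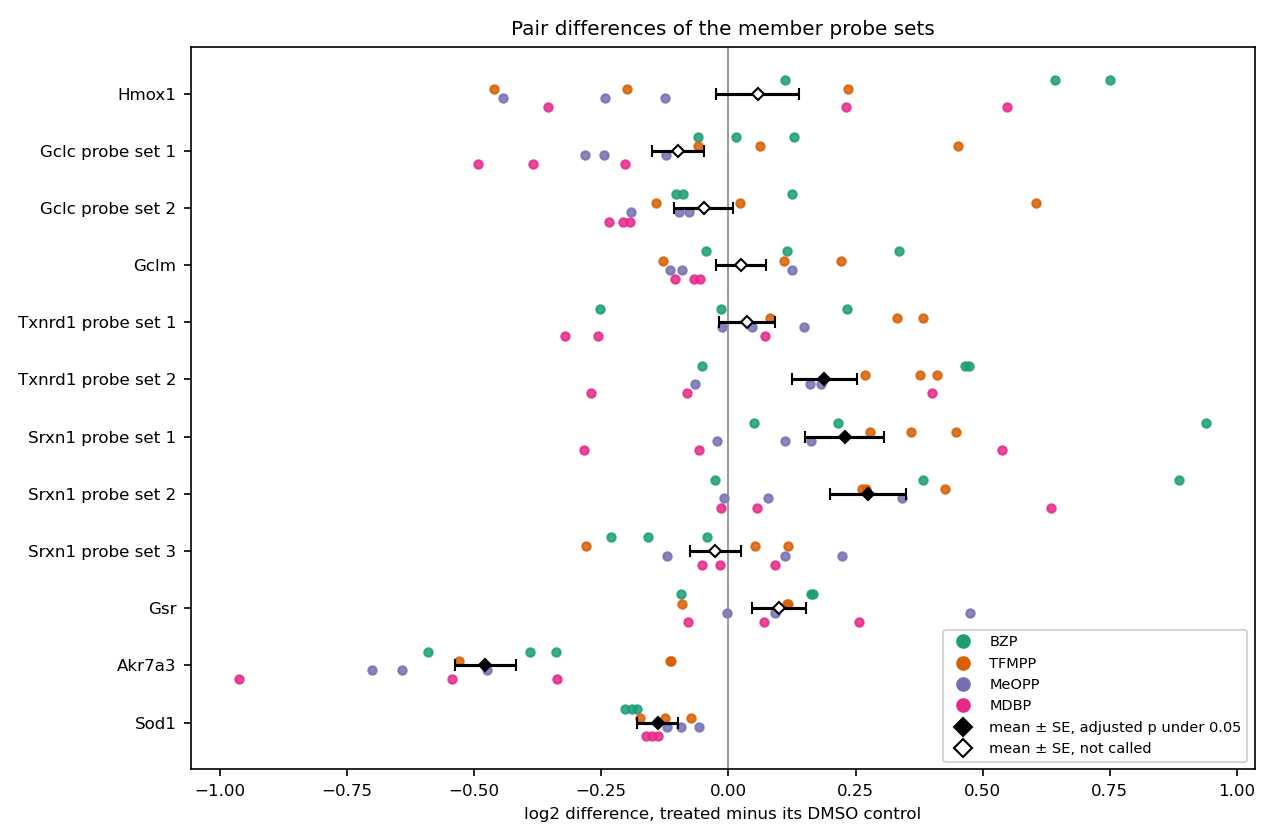
Log2 difference, treated minus its DMSO control (horizontal axis), of the 12 member probe sets (rows). Coloured points are the 12 pairs by drug and diamonds the mean of the 4 drugs ± SE, filled where the adjusted p is under 0.05; all 12 points of Akr7a3 (-0.96 to -0.11) and Sod1 (-0.20 to -0.06) lie left of 0, while Hmox1 has 6 on either side.

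Drug by drug, few members were called. With BZP 1 of 12 member probe sets was called, lower (Akr7a3), against 9.24 percent of all probe sets (4.75 percent higher, 4.48 percent lower). With TFMPP limma called 0, against 1.78 percent (0.557 percent higher, 1.22 percent lower). With MeOPP 1 was lower (Akr7a3), against 6.01 percent (2.23 percent higher, 3.78 percent lower). With MDBP 2 were lower (Akr7a3 and Gclc probe set 1), against 6.98 percent (3.22 percent higher, 3.76 percent lower). At an unadjusted p under 0.05 in limma, 4 probe sets were higher and 2 lower with BZP, and 4 and 0 with TFMPP. With MeOPP these counts were 0 and 1, and with MDBP 0 and 2. The 4 with TFMPP came from Txnrd1 and Srxn1 only, and the share of all probe sets at that level was not counted. Treated and DMSO groups did not overlap for 2 member probe sets with BZP, against 9.56 percent of all probe sets. These were Sod1 and Srxn1 probe set 3, the latter at a mean level of only 3.34. There was no overlap for 0 with TFMPP (8.32 percent), 1 with MeOPP (12.3 percent) and 2 with MDBP (12.1 percent).

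The 4 drugs are piperazines that carry a benzyl group (BZP), the same with a methylenedioxy bridge on the ring (MDBP), or a phenyl group with a trifluoromethyl (TFMPP) or a methoxy group (MeOPP). They were used at different concentrations, each at its EC20, so the values stand side by side and a difference is that of the exposures as used. In 6 pairwise comparisons of the 12 probe sets limma called 0 differences, with 8 at an unadjusted p under 0.05 and a lowest adjusted p of 0.576. The same comparisons called 16 of all probe sets for BZP minus TFMPP (0.0515 percent) and 0.0 percent for the other pairs of drugs. The F test called 0 member probe sets and 0.0 percent of all, with 2 members at an unadjusted p under 0.05 (Hmox1 and Gclc probe set 1). The lowest adjusted p belonged to Gclc probe set 1, where TFMPP minus MDBP was 0.51 (95 percent interval 0.20 to 0.82). For the pair that differs by the methylenedioxy bridge, BZP minus MDBP was 0.39 for Gclc probe set 1 (0.08 to 0.70), 0.17 for Akr7a3 (-0.18 to 0.53) and -0.04 for Sod1 (-0.28 to 0.20). For the phenyl pair, TFMPP minus MeOPP was 0.35 for Akr7a3 (-0.0046 to 0.71) and 0.37 for Gclc probe set 1 (0.06 to 0.68). These intervals are wide beside the changes themselves, so the drugs were neither shown to differ nor shown to act alike.

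Around the members, 86 of 93 listed genes of the same pathways were measured, each by its highest probe set, and 23 rose and 25 fell in the mean of the drugs, against 18.0 percent and 11.9 percent of all genes. Without the pair terms 17 of the 86 were called, 8 higher and 9 lower, and with 1 value per preparation 34, 14 higher and 20 lower. Of the genes named below, the fit without the pair terms lost the calls of Nfe2l2, Maff, Bach1, Nqo1, Gpx2, Txnrd2, Txn1, Gstm2 and Gsta4. It also lost those of Ggct, Ccs, Alas1, Ncoa4, Akr1d1, Akr1b8 and Cbr1 (adjusted p 0.0524 to 0.908 for all of these). With 1 value per preparation the calls of Nfe2l2 (0.0599), Mafg (0.0719), Gpx2 (0.28), Txn1 (0.13), Akr1b8 (0.192) and Cbr1 (0.175) were lost. Of 9 NRF2 regulators 6 rose and 0 fell (median 0.23, against 0.01 for all genes; 0 lower at an unadjusted p under 0.05 in limma). Without the pair terms none of the 9 was called (adjusted p 0.129 to 0.961), so the calls of Mafg, Mafk and Sqstm1 were lost as well. Nfe2l2, the gene of NRF2 itself, rose by 0.29 ± 0.06 in 12 of 12 pairs (adjusted p = 0.00218, and 0.407 without the pair terms). Maff, a small MAF partner, rose by 0.51 ± 0.11 and Bach1 by 0.25 ± 0.05, each in 12 of 12 pairs (adjusted p = 0.00246 and 0.00125). In preparation 3, where the DMSO means of Maff (6.73) and Nfe2l2 (9.73) were lowest, they differed by 1.43 and 0.71. In the other preparations Maff differed by 0.21 to 0.62 and Nfe2l2 by 0.08 to 0.25. Bach1 differed by 0.19 in preparation 3 and by 0.02 to 0.34 in the others. Keap1 differed by 0.09 ± 0.06 and was not called (adjusted p = 0.306). Transcript of a regulator is not a measure of its protein, and NRF2 is controlled mainly through its protein.

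Of 26 measured other NRF2 targets (of 30 listed) 11 rose and 5 fell, with a median of 0.19. Nqo1, a quinone reductase, ranged from 8.98 to 10.05 in treated cells (median 9.28) and from 8.34 to 9.71 in DMSO (median 8.70). It rose by 0.56 ± 0.06 in 12 of 12 pairs (1.48-fold, limma adjusted p = 4.91e-06, and 0.075 without the pair terms). By drug the difference of Nqo1 was 0.75 for TFMPP, 0.74 for MeOPP, 0.39 for BZP and 0.37 for MDBP (SE 0.12, n = 3 pairs each). The drugs were not shown to differ in this (F test, limma adjusted p = 0.841). By preparation Nqo1 differed by 0.74, 0.64 and 0.63 in preparations 1, 2 and 4. In preparations 3 and 5, which held only BZP and MDBP pairs, it differed by 0.20 and 0.19, so drug and preparation are only partly separable here. The canalicular pump Abcc2 rose by 0.60 ± 0.06 and Gstp1, a glutathione transferase, by 0.59 ± 0.08. The falls were led by other transferases: Gsta3 changed by -1.40 ± 0.11, Gstm2 by -0.67 ± 0.07 and Gsta4 by -0.57 ± 0.07, each in 12 of 12 pairs (SE). Slc7a11 differed by 0.28 ± 0.14 (adjusted p = 0.194) and, like Hmox1, had its largest difference in preparation 3, at 1.52.

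In the glutathione cycle 2 of 16 genes rose and 6 fell. Chac1, which degrades glutathione, rose by 0.72 ± 0.13 and Gpx2, a glutathione peroxidase, by 0.24 ± 0.08. The rise of Chac1 was uneven: 1.23 with MDBP, 0.87 with BZP, 0.71 with MeOPP and 0.05 with TFMPP (F test, limma adjusted p = 0.792). By preparation it was 1.67 in preparation 3 and 1.55 in preparation 5, against 0.26 to 0.57 in the others. Oplah, the 5-oxoprolinase that returns glutamate to the cycle, changed by -0.83 ± 0.07, Ggct by -0.59 ± 0.06 and the glutaredoxin Glrx by -0.38 ± 0.07. The level of Oplah was low, at a median of 4.22 in treated cells and 4.93 in DMSO, beside array medians of 4.45 to 4.52. Of 18 measured genes of peroxide and superoxide removal (of 19) 4 rose and 7 fell. Txnrd3 and Txnrd2, relatives of Txnrd1, rose by 0.57 ± 0.05 and 0.31 ± 0.06 in 12 of 12 pairs each, and thioredoxin (Txn1) by 0.14 ± 0.04. Ccs, the chaperone that loads copper into the Sod1 enzyme, changed by -0.55 ± 0.05 in 12 of 12 pairs (adjusted p = 3.22e-07, and 0.0723 without the pair terms), beside -0.14 for Sod1. Selenop changed by -0.56 ± 0.07, Txnip, which binds thioredoxin, by -0.43 ± 0.05, and catalase (Cat) by -0.33 ± 0.06.

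Among the 7 genes listed as aldo-keto and aldehyde reductases, a mixed list whose members need not share the function of Akr7a3, 5 fell and 0 rose (median -0.44). At an unadjusted p under 0.05 in limma, 0 of the listed genes were higher. Akr1a1 and Akr1b1 differed by 0.002 and -0.05 and were not called (limma adjusted p = 0.989 and 0.672). Other reductases were listed with the NRF2 targets, where Akr1b8 rose by 0.43 ± 0.10 and Cbr1 by 0.16 ± 0.05 (limma adjusted p = 0.00382 and 0.0363). By drug, Akr1b8 differed by 1.13 with BZP (limma adjusted p = 0.00147), 0.57 with MDBP, 0.02 with TFMPP and 0.005 with MeOPP. Cbr1 differed by 0.26, 0.31, 0.05 and 0.007 in the same order and was called with no single drug. The F tests of equal drug effects did not pass (limma adjusted p = 0.646 and 0.888). Akr1b10 and Cbr3 of the NRF2 target list were not called (adjusted p = 0.793 and 0.869). Dcxr changed by -1.04 ± 0.11, Akr7a2, the member of the same subfamily, by -0.81 ± 0.09 and the steroid reductase Akr1d1 by -0.60 ± 0.09, each in 12 of 12 pairs (SE). Of 10 measured haem and iron genes (of 12) 0 rose and 2 fell, with 0 higher and 5 lower at an unadjusted p under 0.05 in limma. Alas1, the first enzyme of haem synthesis, changed by -0.46 ± 0.09 and Ncoa4, which sends ferritin to autophagy, by -0.27 ± 0.05. Hmox2, the constitutive haem oxygenase, differed by 0.01 ± 0.06 and was not called (adjusted p = 0.908).

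**Figure D4:**
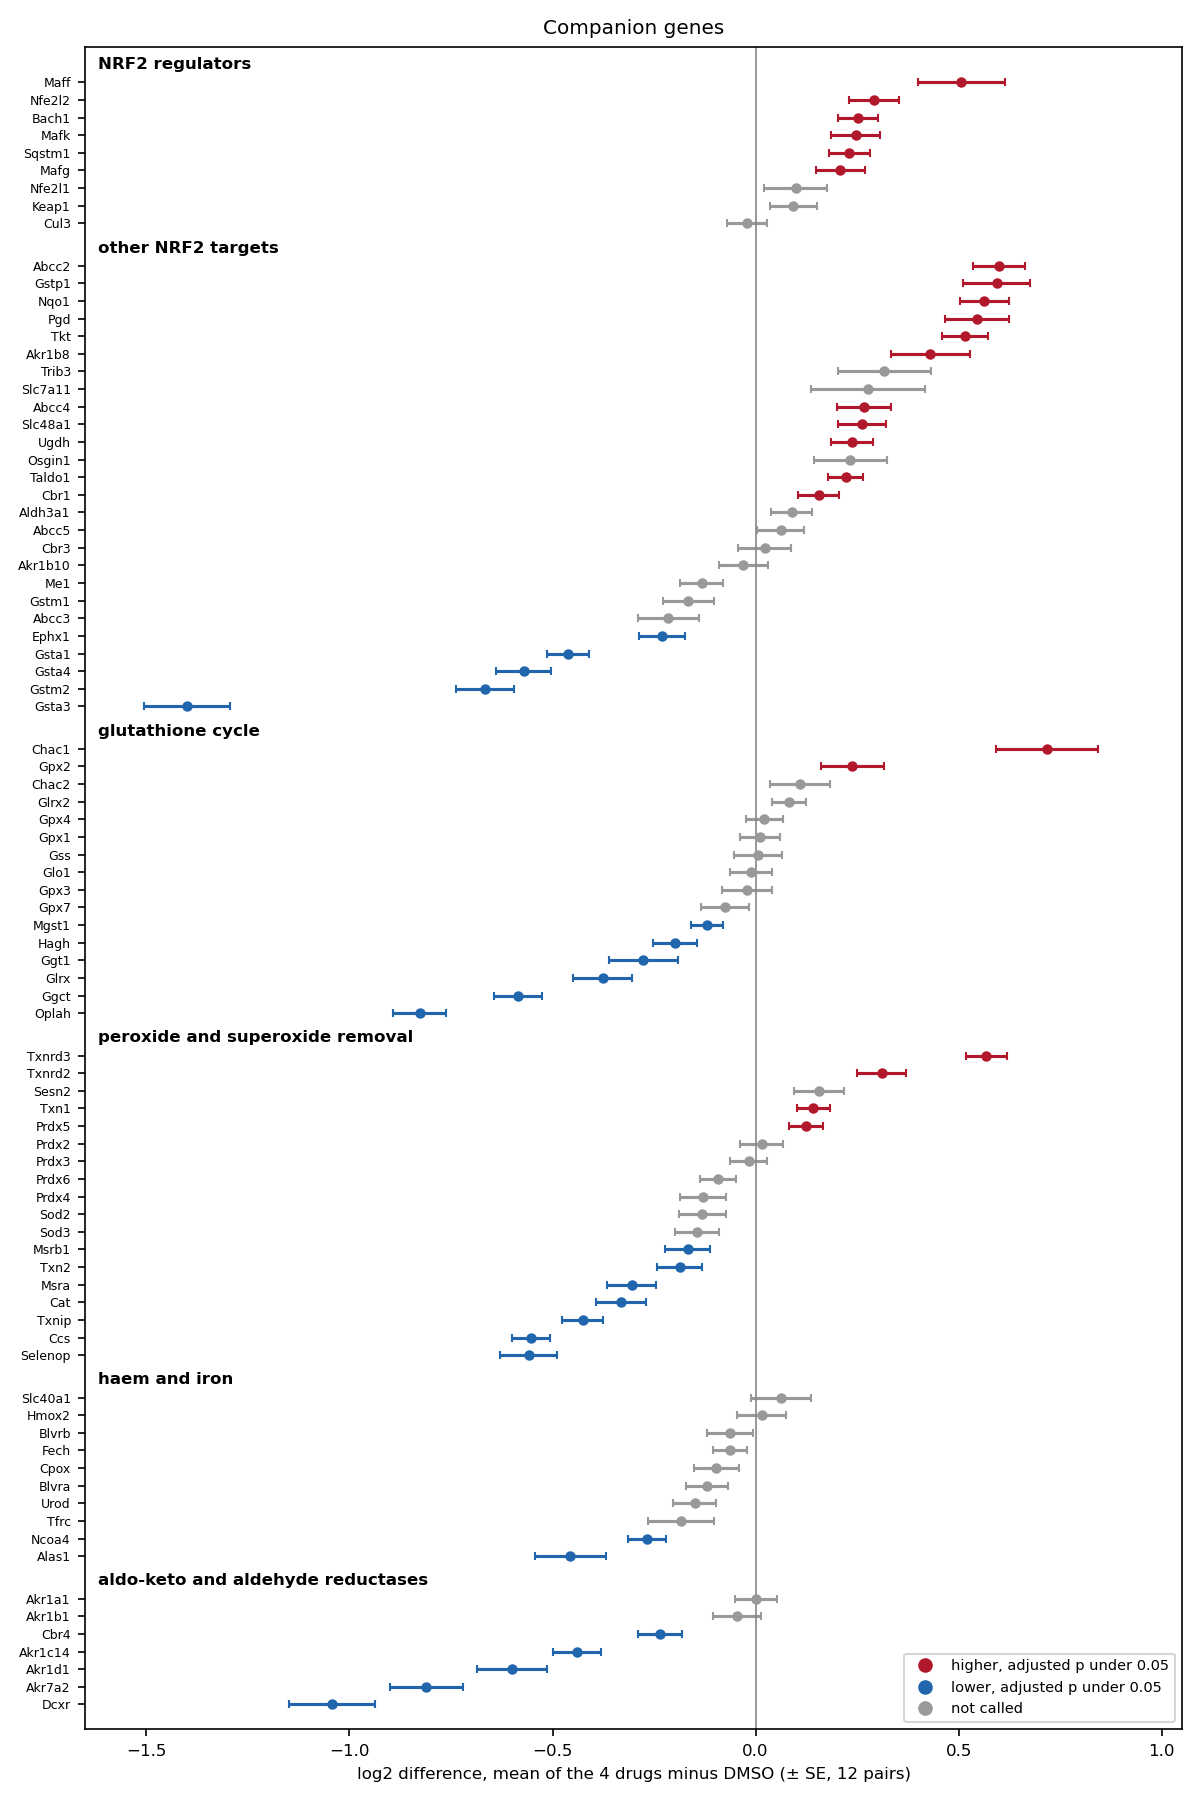
Log2 difference in the mean of the 4 drugs minus DMSO (horizontal axis, points ± SE, 12 pairs) of the 86 measured listed genes, grouped by list. Red points passed as higher, blue points as lower and grey points were not called; 6 of 9 NRF2 regulators are red and 5 of 7 aldo-keto and aldehyde reductases are blue.

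Over the 12 pair differences, the genes most like each member were found by Pearson correlation among 8608 genes with a mean of at least 5. Pairs of the same drug or preparation share their state, so these values describe 12 points and carry no test. Hmox1 was followed most closely by Tiparp (r = 0.95), Slc40a1, the iron exporter ferroportin (r = 0.94), and Marchf8 (r = 0.93). Txnrd1, by probe set 1, was followed by Cdkn1a (r = 0.97), Rad54l2 (r = 0.95) and Cblb (r = 0.91), and Srxn1, by probe set 1, by Afg2b (r = 0.92), Scyl2 (r = 0.90) and Dyrk3 (r = 0.89). Gclc stood nearest to Arhgef26 (r = 0.88), Rdx and Hp1bp3, and Gclm to Rab23 (r = 0.87), Arhgap5 and Nup58. Akr7a3 stood nearest to Ubtf (r = 0.88), Stk24 and Spice1, Sod1 to Cyp2c6v1 (r = 0.88), Pkn3 and Tmem80, and Gsr to Gatd3a (r = 0.89), Slc30a3 and Acaca. Among the members themselves the highest correlation was 0.77, between Txnrd1 and Akr7a3, and the lowest -0.67, between Hmox1 and Sod1.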

How the data were processed

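The deposited values are on a log2 scale and came from RMA (background correction, quantile normalization, summary over probes), with no version named in the submitters' processing notes. Total RNA was isolated with QIAzol and 100 ng went into labelling, per the labels' protocols. Array medians lay between 4.45 and 4.52, so values were used as deposited. Arrays carry no read depth, and their number limits the precision.

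Of 31099 probe sets, 57 controls were left out. Genes were named where the platform table gave 1 symbol (20826 probe sets, with several for 436 and none for 9780). All 24 arrays entered a model in limma 3.58.1 (R 4.3.3) with 12 pair and 4 drug terms, 8 residual and 7.66 prior degrees of freedom, which was tested on simulated data. Tests were two-sided. The titles of the controls give the pairs, and deviations from group means correlated at 0.612 to 0.802 in all 12. Preparations come from average-linkage clustering of the DMSO arrays on their correlations, cut at 5 sets. A companion list names up to 3 called rises and 3 called falls, beside Nfe2l2, Keap1, Bach1, Nqo1, Cat and Slc7a11; likeness names 3 genes a member. Hmox2, Akr1a1, Akr1b1, Akr1b8, Akr1b10, Cbr1, Cbr3 and the markers named were added after their values were seen. Members and lists were chosen with earlier results of these data known. Plots used matplotlib 3.10.9 under Python 3.11.15.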

Additional observations from a re-analysis of the deposited data

Results flagged for a closer look

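The difference of Hmox1 between BZP and MeOPP passed 0.05 by a test of the difference itself before adjustment. BZP minus MeOPP was 0.77 on the log2 scale (95 percent interval 0.28 to 1.26), with 3 of 3 BZP pairs higher and 3 of 3 MeOPP pairs lower than their controls. A probe set was flagged only where a drug was higher in 3 of 3 pairs and another was lower in 3 of 3. These directions are therefore the rule of selection and no support for the difference, and the unadjusted test was made on values so selected. It did not pass after adjustment over all probe sets (limma adjusted p = 0.577), and pair 3 of these drugs lay in different preparations.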

How the results depend on the processing

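For the mean of the 4 drugs, where 5 member probe sets were called, no replicate block (no pair terms) gave 0 calls, with 2 at an unadjusted p under 0.05. The DMSO arrays as 1 control group gave 1, and 1 value per preparation gave 1. With averaged probe sets, 2 of 8 genes were called. Leaving out preparations 1, 2, 3 and 4 gave 3, 1, 2 and 3 calls, and leaving out each pair gave 3 to 5. With BZP (1 call), no replicate block, 1 control group, only its own arrays, or leaving out preparation 2 or 3 gave 0, with 1, 1, 4, 3 and 2 at an unadjusted p under 0.05 in limma. A mean of at least 5 gave 2 (1 higher, 1 lower), leaving out preparation 1 or pair 1 of BZP gave 2 (both higher, none lower), and leaving out each pair gave 0 to 2. With TFMPP every alternative gave 0. With MeOPP (1 call), no replicate block, 1 control group and leaving out preparation 1, 2 or 4 gave 0, with 0, 2, 3, 1 and 1 at an unadjusted p under 0.05, and leaving out each pair gave 0 to 1. With MDBP (2 calls), no replicate block, 1 control group and leaving out preparation 5 gave 0, with 0, 3 and 2 at an unadjusted p under 0.05. Its own arrays, median centring, averaged probe sets and leaving out preparation 1, 2, 3 or 4 gave 1, and leaving out each pair gave 0 to 2. Differences between drugs gave 0 under every alternative run. Of the companion genes, 48 were called, and 17 with no replicate block (8 higher and 9 lower) and 34 with 1 value per preparation (14 higher and 20 lower). Among probe sets that were not called, the sign turned for Hmox1 without preparation 3 (-0.0107), for Gclm without preparation 3 (-0.00111) and without pair 3 of BZP (-3.77e-05), and for Srxn1 probe set 3 without preparation 1 (0.0291) and without pair 1 of TFMPP (0.00469). The scaling alternatives for the companion genes were chosen after seeing the data. The cause of these shifts was not tested. A drug rests on 3 pairs, and the preparations are inferred, so effects of BZP and MDBP are only partly separable from their preparations.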
